A study of Mus musculus with 6 samples.

Results

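Esrra, Esrrb, Esrrg and Nr5a2 encode 4 nuclear receptors, and all 6 array probes matched to them by RefSeq accession are described here across 6 arrays of sorted mouse embryonic spinal cord cells. These were 4 of 19897 genes with a matched probe, and 6 of 55681 probes. The 4 genes were singled out because of how they differed, or did not differ, between motor neurons and the other sorted cells, so that difference is given as a description with no test. The contrast of genotype labels among motor neurons did not enter the choice and was tested.

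Estrogen-related receptors α, β and γ (Esrra, Esrrb, Esrrg) are orphan nuclear receptors that resemble the estrogen receptors but act without a natural hormone. They bind an extended half-site in DNA as monomers or dimers, draw their activity from coactivators such as PGC-1α, and are known as regulators of mitochondrial and energy metabolism genes. NR5A2, also called LRH-1, belongs to a separate subfamily, binds a closely similar extended half-site as a monomer, and is known from bile acid and steroid metabolism and from early embryos. Esrrb and Nr5a2 are also part of the network that maintains embryonic stem cells, and in the spinal cord Esrrb and Esrrg are known as genes of gamma motor neurons, which set the tension of muscle spindles.

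The cells came from E12.5 embryos that carried the Hb9::GFP reporter, in which the Hb9 (Mnx1) promoter marks spinal motor neurons, on a wild-type background or with both alleles of the microRNA cluster mir-17~92 deleted (mir-17~92 -/-). Cord cells were separated by flow cytometry into GFP-on cells, here called motor neurons, and GFP-off cells, here called non-motor neurons. Both genotypes carried the reporter, sex was not determined, and the labels do not say how many embryos went into a sample. Each genotype label had 2 arrays of GFP-on cells and 1 of GFP-off cells. Nothing states that replicates came from separate animals, so p-values measure the spread between these samples, which may be technical.

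Values below are log2 signals relative to the 75th percentile of the same array, so that 0 is the 75th percentile itself and negative values lie below it. The percentile lay between 48.5 and 549.9 signal units, and between 41.0% and 62.3% of spots were well above background. The percentile was 48.5 and 64.5 for wild-type-labelled motor neurons and 59.9 for replicate 1 of the knockout-labelled ones, and the other 3 arrays were brighter (340.5 or more). Label and slide position cannot be told apart in motor neurons, since both knockout-labelled arrays lay in slide row 1 and both wild-type-labelled ones in row 2. The probe of Mir17hg, the host transcript of the deleted cluster, gave 4.55 and 4.78 in knockout-labelled and -2.38 (below background) and 2.73 in wild-type-labelled motor neurons. In non-motor neurons it gave 4.62 under the knockout and -1.23 under the wild-type label. A transcript removed by the deletion would be lower under the knockout label, but whether this probe falls inside the deletion is not known here. Genotypes are therefore called by their labels, and every direction between them rests on the labels.

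Of the 6 receptor probes, 5 were well above background on all 6 arrays and passed the filter, which asked for 2 arrays. They cover all 4 genes: 1 probe each for Esrra and Esrrb, both probes of Esrrg, and 1 of the 2 probes of Nr5a2. The second Nr5a2 probe (A_55_P2142908) was below background on every array and could not be tested. Its signals of -3.03 and -5.39 in knockout-labelled motor neurons, -3.93 and -4.44 in wild-type-labelled motor neurons, and -7.20 and -6.56 in non-motor neurons are therefore no measured levels.

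The start regions of the 4 genes are shown because 3 of the genes were high in the same cells and the fourth was not, and because these receptors can bind promoters of their own family. RefSeq (assembly GRCm38.p6) lists 9 start windows for the 4 genes, and 1 of each gene is printed: the 250 bases before the annotated start, read 5′ to 3′ on the strand of the gene. Capitals mark the CCAAT box (CCAAT, or ATTGG where it lies on the opposite strand) and the GC box (GGGCGG, or CCGCCC on the opposite strand).
Esrra, chr19:6921809-6922058, minus strand: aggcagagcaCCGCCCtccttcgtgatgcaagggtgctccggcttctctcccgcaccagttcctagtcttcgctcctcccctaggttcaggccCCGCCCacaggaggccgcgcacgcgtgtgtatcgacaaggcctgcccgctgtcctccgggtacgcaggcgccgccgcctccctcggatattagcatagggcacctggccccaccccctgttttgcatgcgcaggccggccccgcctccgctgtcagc
Esrrb, chr12:86421394-86421643, plus strand: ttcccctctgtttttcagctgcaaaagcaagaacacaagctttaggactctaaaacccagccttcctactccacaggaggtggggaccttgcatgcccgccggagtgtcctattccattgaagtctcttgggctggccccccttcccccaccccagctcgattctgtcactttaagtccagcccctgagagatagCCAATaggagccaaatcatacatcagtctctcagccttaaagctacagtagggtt
Esrrg, chr1:187997577-187997826, plus strand: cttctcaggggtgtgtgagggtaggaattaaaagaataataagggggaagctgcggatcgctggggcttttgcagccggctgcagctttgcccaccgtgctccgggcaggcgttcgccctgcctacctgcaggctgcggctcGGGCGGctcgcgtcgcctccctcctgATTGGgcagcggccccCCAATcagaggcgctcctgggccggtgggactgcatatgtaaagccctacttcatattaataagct
Nr5a2, chr1:136953631-136953880, minus strand: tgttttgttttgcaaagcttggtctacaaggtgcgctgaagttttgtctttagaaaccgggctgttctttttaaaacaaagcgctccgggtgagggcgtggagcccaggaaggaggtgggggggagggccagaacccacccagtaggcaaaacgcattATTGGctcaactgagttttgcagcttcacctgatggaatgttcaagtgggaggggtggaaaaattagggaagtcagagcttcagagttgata

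The windows differed in base composition, with 68.4% G and C in the Esrra window, 61.2% in that of Esrrg, 52.0% in that of Esrrb and 49.6% in that of Nr5a2, against a median of 52.4% over 32851 windows. Esrra has 1 listed window, Esrrb 2, Esrrg 4 and Nr5a2 2. The windows not printed held 60.8% G and C for Esrrb, 50.8%, 41.6% and 63.6% for Esrrg and 43.2% for Nr5a2. The order of the genes by base composition thus depends on the window printed. For Esrrb, Esrrg and Nr5a2 the window printed is the only one of its gene that holds CCAAT (starting at -55 in Esrrb, at -82 and -66 in Esrrg and at -92 in Nr5a2), so its presence in the printed windows carries no comparison with Esrra. Over all 9 receptor windows, these 3 held CCAAT on either strand, against 33.8% of all windows, and 3 held GGGCGG, against 32.7%. TATAAA was in 2 of 9, against 12.4%. The binding element of the estrogen-related receptors, TCAAGGTCA, was in none of the 9 (0.387% of all windows), nor was its core AAGGTCA (4.08%, which includes every TCAAGGTCA) or the NR5A form TCAAGGCCA (0.511%). These counts describe letters in the windows only.

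Among genes known as targets of these receptors, 1 of the 10 estrogen-related receptor targets with a window, Acadm, and 1 of the 7 NR5A2 targets with a window, Cel, held the core AAGGTCA. It lies on the opposite strand in both and reads TGACCTT, in capitals. Acadm encodes an enzyme of mitochondrial fatty acid oxidation, and Cel a bile salt-dependent lipase.
Acadm, chr3:153944861-153944893, minus strand: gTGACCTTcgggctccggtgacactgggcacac
Cel, chr2:28563404-28563456, minus strand: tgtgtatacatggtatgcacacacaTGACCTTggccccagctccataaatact

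Esrrb, Esrrg and Nr5a2 were all high in motor neurons and low in non-motor neurons of both genotype labels, while the values of Esrra overlapped between the fractions. Esrrb, the β receptor, gave 1.73 and 1.97 in knockout-labelled motor neurons, 2.43 and 1.43 in wild-type-labelled motor neurons, and -2.53 and -2.15 in non-motor neurons of the knockout and the wild-type label. All 4 motor neuron arrays lay above both non-motor-neuron arrays, the nearest pair 3.58 apart. The difference averaged 4.23 on the log2 scale, or 18.7-fold. It was 4.38 within the knockout-labelled arrays and 4.07 within the wild-type-labelled ones.

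Esrrg, the γ receptor, was seen by both of its probes. Probe A_55_P2006499 gave 2.0 and 1.83 in knockout-labelled motor neurons, 1.49 and 1.95 in wild-type-labelled motor neurons, and -2.33 and -2.65 in non-motor neurons of the knockout and the wild-type label. Probe A_65_P19089 gave 1.91 and 2.05, then 1.32 and 1.51, then -2.31 and -2.63, in the same order. The 2 probes of Esrrg therefore followed each other, differing by at most 0.44 on any array and by 0.02 on both non-motor-neuron arrays. Their differences between the fractions were 4.31 (19.8-fold) and 4.17 (18.0-fold), and no motor neuron array came within 3.63 of a non-motor-neuron array.

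Nr5a2 gave 0.59 and -0.09 in knockout-labelled motor neurons, 0.89 and 1.28 in wild-type-labelled motor neurons, and -3.81 and -3.55 in the 2 non-motor-neuron samples. The groups of cells did not overlap, with a gap of 3.47, and the difference was 4.35 on the log2 scale (20.4-fold). Within labels it was 4.06 for knockout and 4.64 for wild type. On the linear scale the non-motor-neuron signals of this probe were 39.3 and 29.0 units, above the lowest signals called well above background on those arrays (17.6 and 17.2).

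Esrra, the α receptor and the family member best known from tissues with a high energy demand, gave 2.40 and 2.71 in knockout-labelled motor neurons, 2.64 and 2.39 in wild-type-labelled motor neurons, and 2.52 and 2.68 in non-motor neurons. Both non-motor-neuron values fell inside the range of the motor neuron values. Its difference between fractions was -0.07, and it was 0.03 and -0.17 within the knockout and wild-type labels.

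**Figure D1:**
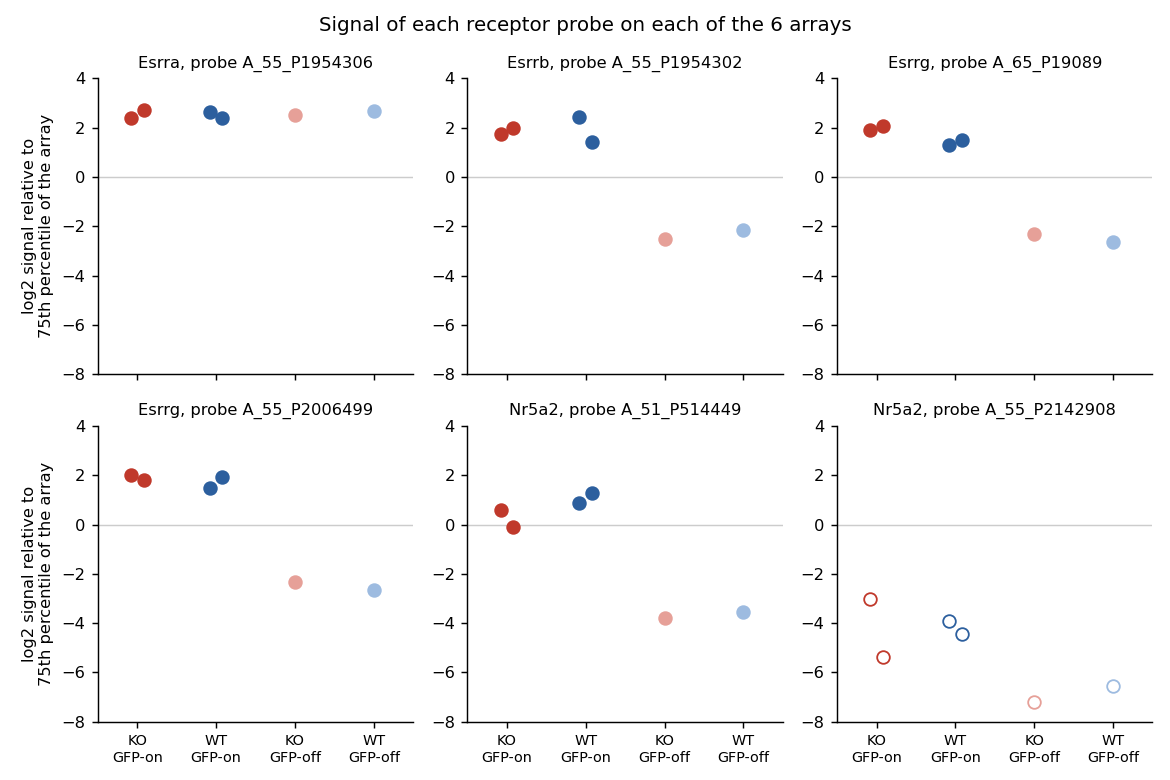
Log2 signal of each of the 6 receptor probes relative to the 75th percentile of the array (vertical axis), in GFP-on motor neurons (2 arrays for each label, replicate 1 left of replicate 2) and GFP-off cells (1 array for each label). KO and WT are the mir-17~92 knockout and wild-type labels, each point is 1 array, filled points were well above background, and open points were not. The Esrrb, Esrrg and Nr5a2 probes above background lie 3.47 or more higher on every GFP-on array than on either GFP-off array, while the 6 Esrra points lie between 2.39 and 2.71.

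The size of these differences can be placed among all probes, as a description, because the genes were chosen on them. Of 33264 probes that passed the filter, the Nr5a2 probe ranked 20th by this difference, the Esrrg probes 21st and 30th, and the Esrrb probe 25th. Every motor neuron array lay above both non-motor-neuron arrays for 9.42% of all probes, and by more than 3 on the log2 scale for 22 probes (0.0661%), to which these 4 belong. Just inside that distance of 3, the gap of Nr5a2 was 3.47, and Esrra, outside it, had a gap of -0.29. In a sorted bulk sample, fewer cells with a transcript and less of it per cell cannot be told apart.

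Differences between receptors within an array are not altered by any constant subtracted from the whole array. Esrra minus Esrrb was between 0.21 and 0.96 on the 4 motor neuron arrays and 5.05 and 4.83 on the non-motor-neuron arrays. Esrra minus Nr5a2 was between 1.11 and 2.80 on the former and 6.33 and 6.23 on the latter. These are differences between probes, whose zero has no meaning, and only their change from array to array can be read.

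The knockout label did not part the receptors in motor neurons by the test. The difference between knockout-labelled and wild-type-labelled motor neurons was 0.04 ± 0.51 for Esrra (log2, SE, n = 2 against 2, adjusted p = 0.959, limma) and -0.08 ± 0.56 for Esrrb (adjusted p = 0.930). For Esrrg it was 0.19 ± 0.52 on probe A_55_P2006499 (adjusted p = 0.804) and 0.57 ± 0.51 on probe A_65_P19089 (adjusted p = 0.425). For Nr5a2 it was -0.83 ± 0.54 (adjusted p = 0.268). None of the 5 probes was called, while 24.8% of all probes tested were (3524 higher and 4733 lower under the knockout label). With the median of each array subtracted instead of the 75th percentile, the split of all probes turned to 7282 higher and 2569 lower.

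The 95% intervals leave room for sizeable changes. They ran from -1.11 to 1.20 for Esrra, from -1.34 to 1.18 for Esrrb, from -0.97 to 1.36 and from -0.58 to 1.71 for the Esrrg probes, and from -2.04 to 0.38 for Nr5a2. A 2-fold change in either direction thus lay inside the interval for Esrra and Esrrb, and so did a fall of Nr5a2 to 0.243 of its wild-type-labelled level. The 2 labels did not overlap for Esrrg probe A_65_P19089, which was higher on both knockout-labelled arrays, and for Nr5a2, which was lower on both. Among all probes the labels did not overlap for 69.5%. For 1 probe, the smallest p of an exact permutation test (two-sided) is 0.333 at this number of arrays.

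**Figure D2:**
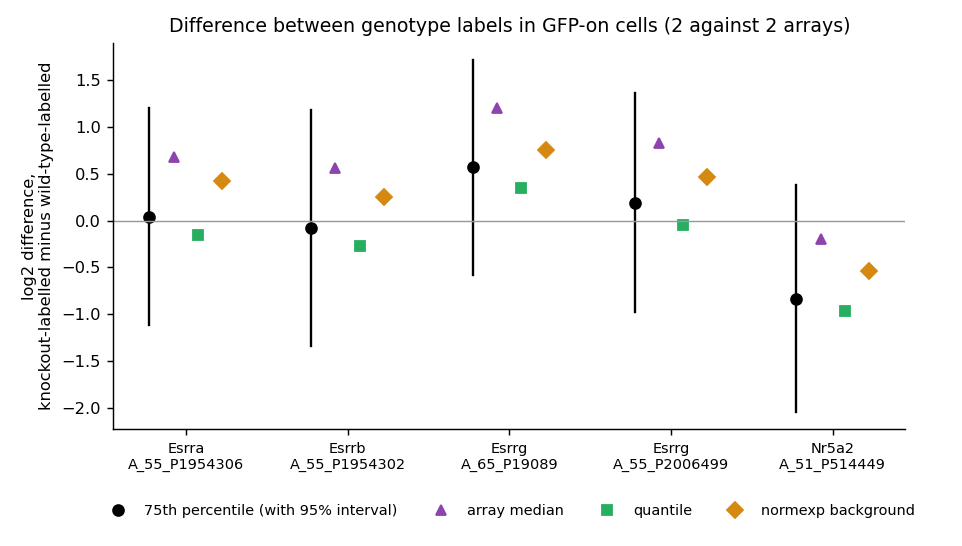
Log2 difference between knockout-labelled and wild-type-labelled motor neurons (vertical axis, 2 arrays against 2) for the 5 receptor probes above background. Circles show the values scaled to the 75th percentile with their 95% interval, and the other symbols the same difference after median scaling, quantile normalization or normexp background correction. All 5 intervals include 0, and Nr5a2 is the probe whose 4 estimates all lie below 0, from -0.96 to -0.20.

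The direction of 3 of these 5 differences changed with the scaling. The median difference of all probes was -0.20 with the 75th percentile, 0.44 with the array median and 0.06 with quantile normalization. Esrrb went from -0.08 to 0.56 with the array median, and Esrra from 0.04 to -0.15 with quantile normalization. Esrrg probe A_55_P2006499 went to -0.04 with quantile normalization. Esrrg probe A_65_P19089 stayed above 0 and Nr5a2 below 0 in each of these scalings.

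Differences between 2 receptors on the same array were compared between the labels. On probe A_55_P2006499, Esrrg minus Nr5a2 was 1.41 and 1.91 in knockout-labelled motor neurons and 0.61 and 0.67 in wild-type-labelled ones, a change of 1.02 that subtracting any constant from an array leaves as it is. Esrra minus Nr5a2 was 1.81 and 2.80 against 1.75 and 1.11, a change of 0.88. In both pairs the labels did not overlap, yet the exact permutation p of 0.333 is the smallest possible with 2 arrays against 2 (two-sided), and the adjusted value over the 6 receptor pairs was 0.999. The other 4 pairs overlapped.

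The non-motor-neuron arrays give single values for the same contrast. Knockout-labelled minus wild-type-labelled non-motor neurons gave -0.16 for Esrra, -0.38 for Esrrb, 0.32 for both Esrrg probes and -0.26 for Nr5a2. The interaction, which asks whether the genotype difference differs between fractions, did not pass for any receptor probe (limma, adjusted p from 0.875 to 0.977), with estimates from -0.58 for Nr5a2 to 0.31 for Esrrb. It called 0 of 33264 probes (0%), with 2807 at an unadjusted p under 0.05.

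The wider nuclear receptor family shows how the 4 genes stand among their relatives. Of 45 other listed nuclear receptor genes, 29 passed the filter. Together with the 4 receptors this makes 33 genes, in which Nr5a2, Esrrg and Esrrb hold the 3 highest differences between motor neurons and non-motor neurons and Esrra stands 21st. Next came Nr4a2, an orphan receptor best known from dopamine neurons. Nr4a2 gave 3.99 and 3.82 in knockout-labelled and 3.03 and 3.20 in wild-type-labelled motor neurons, against 0.98 and 0.50 in non-motor neurons. That difference, 2.77 ± 0.44 (SE over 4 against 2 arrays), passed limma's test at an adjusted p of 0.0355, and its other probe gave 2.77 too.

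Nr4a2 was the only one of the 29 other receptors called in this comparison, and none was lower. Over all genes, 0.791% were called higher and 0.315% lower, and over all probes 0.649% and 0.204% (0.854% in all). The median difference of the 29 was 0.06, against -0.21 over all genes. The call of Nr4a2 was lost when any array other than knockout-labelled motor neuron replicate 2 was left out. Nr5a1, the closest relative of Nr5a2 and a regulator of steroid-producing glands, gave 0.74. Its levels were -0.15 and -1.34 in knockout-labelled and 0.47 and 1.24 in wild-type-labelled motor neurons, against -1.04 and -0.33 in non-motor neurons, so that the fractions overlapped. Among the estrogen receptors proper, Esr2 gave 0.94 and Esr1 did not pass the filter.

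**Figure D3:**
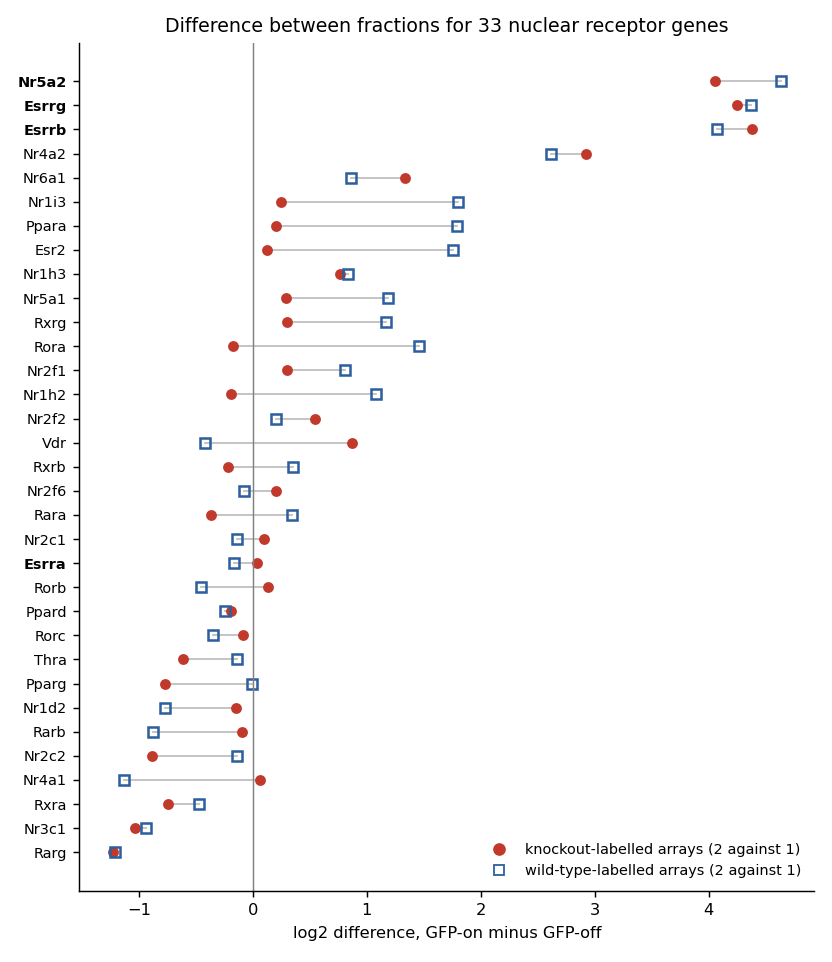
Log2 difference between GFP-on and GFP-off cells (horizontal axis) for the 33 nuclear receptor genes that passed the filter, ordered by the average of both labels, within the knockout-labelled arrays (filled circles) and the wild-type-labelled arrays (open squares), each from 2 arrays against 1. Nr5a2, Esrrg and Esrrb stand at 4.06 or more under both labels, Nr4a2 follows, and Esrra lies at 0.03 and -0.17.

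Between the genotype labels in motor neurons, 5 of the 29 other receptors passed the test, 4 of them lower and 1 higher under the knockout label. Nr1i3, a receptor for foreign compounds in liver, gave 0.32 and -0.59 against 2.11 and 3.66, which makes -3.02 ± 0.66 (SE over 2 against 2 arrays; limma, adjusted p = 0.0173). Rora, of the cerebellum and the clock, gave -2.47, Esr2 gave -1.99 and Ppara, a regulator of fatty acid oxidation, gave -1.85, but the other 2 Ppara probes gave -0.06 and 0.23 and were not called. Nr1d2, a clock repressor, was the gene called higher, at least 1.25-fold, with both wild-type-labelled arrays below background. Over all genes, 15.0% were called higher and 6.57% lower. The median of the 29 was -0.61, against 0.34 over all genes, and became 0.03 with 3 higher and 2 lower when array medians were subtracted. None of the 5 was called without knockout-labelled replicate 2 or without wild-type-labelled replicate 2.

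Coregulators carry the activity of receptors that lack a hormone. Ppargc1a, which encodes PGC-1α, gave 0.53 and -0.12 in knockout-labelled and 1.07 and 1.70 in wild-type-labelled motor neurons, against -0.79 and -0.75 in non-motor neurons. All 4 motor neuron arrays lay above both others, and the step of 1.56 ± 0.51 (SE over 4 against 2 arrays) did not pass limma's test (adjusted p = 0.154). Ncoa1, a coactivator of steroid receptors, gave -0.90. None of the 10 coregulators that passed the filter, of 11 listed, was called between the fractions, against 1.11% over all genes. Between the labels, 15.0% of all genes were called higher and 6.57% lower. Among the 10 coregulators only Ncoa2, a coactivator related to Ncoa1, was called on the probe that stands for the gene. It gave 1.84 and 2.15 against 0.31 and -1.86, a difference of 2.77, a call lost without knockout-labelled or wild-type-labelled replicate 2. Another Ncoa1 probe was called higher (1.73, limma, adjusted p = 0.0407) and another Ncoa3 probe lower (-2.16, adjusted p = 0.0471).

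Estrogen-related receptor targets are largely genes of mitochondria and energy supply. Of 13 listed, 12 passed the filter and none was called between the fractions, against 1.11% over all genes. Of the 12 differences, 3 were above 0, with a median of -0.53, against -0.21 over all genes. The median was -0.07 within the knockout label and -0.87 within wild type, against -0.09 and -0.30 over all genes. Tfam, the packaging factor of mitochondrial DNA, gave the lowest difference (-2.73), and the angiogenic factor gene Vegfa gave -1.37, neither past the test. The highest of the 12 was that of Cpt1b, at 1.16 and at 1.26 on its other probe, also not past the test. Tfam gave -0.48 within the knockout label and -4.99 within wild type, whose motor neuron arrays were below background. Its other probes gave -2.50 and -0.29. Vegfa gave -0.35 within the knockout label and -2.40 within wild type, and 0.32 on its other probe. Acadm, whose promoter stretch is printed above, gave 2.67 and 3.02 in knockout-labelled and 1.19 and 2.17 in wild-type-labelled motor neurons, against 3.21 and 2.46 in non-motor neurons. Its fractions overlapped, with a difference of -0.57.

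Between the labels, 5 of the 12 targets were called higher in knockout-labelled motor neurons and none lower, against 15.0% and 6.57% over all genes. Tfam gave 1.09 and 1.85 there, was below background on each wild-type-labelled array, and was at least 12.8-fold higher. Gabpa, a partner regulator of respiratory chain genes, rose by 2.42 and Idh3a, of the citric acid cycle, by 1.99. Vegfa rose by 2.38 on its brighter probe and gave -1.32 on its other probe. The fifth was the mitochondrial fusion gene Mfn2 (1.98). The median of the 12 was 1.12, against 0.34 over all genes. Other probes of Tfam (3.77 and 1.75) were called too, as was 1 of 2 other Mfn2 probes (2.77 and 0.59), while the other Gabpa probe (0.71) was not. Only 1 of the 12 was called without knockout-labelled or without wild-type-labelled replicate 2, with normexp and with quantile normalization. Microglia and macrophage markers moved with these targets: 6 of 8 were called higher under the knockout label, with a median of 2.46, among them Tyrobp (at least 12.2-fold) and Mrc1 (at least 9.35-fold). Their summed level was 23.8 and 26.1 times the 75th percentile in knockout-labelled motor neurons, 7.70 and 12.2 in wild-type-labelled ones, and 25.6 and 14.7 in non-motor neurons. With normexp none of the 8 was called. The part of these cells in the difference of the targets was not tested.

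Targets known for NR5A2 were few on these arrays. Of 11 listed, 6 passed the filter, and none was called between the fractions, against 1.11% over all genes. The median of the 6 was -0.96, against -0.21 over all genes. Abcg5, a sterol transporter of liver and gut, gave -2.06, and the cyclin gene Ccne1 gave -1.39. Cel gave -2.03 and -2.43 in knockout-labelled and -0.32 and 0.90 in wild-type-labelled motor neurons, against -2.06 and -1.35 in non-motor neurons, and fell by 2.52 between the labels, a call lost without knockout-labelled or wild-type-labelled replicate 2. Ccnd1, a cyclin of the early cell cycle, rose by 3.11 under the knockout label, at 3.77 and 3.73 against 0.60 and 0.68. Thus 1 of the 6 was called lower and 1 higher between the labels, against 6.57% and 15.0% over all genes. The liver genes Cyp7a1 and Abcg8 and the aromatase gene Cyp19a1 were not above background on any array.

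Esrrb and Nr5a2 are known together from embryonic stem cells, whose other factors were listed with them. Of 12 such partners, 9 passed the filter and none was called between the fractions, against 1.11% over all genes. The median of the 9 was -1.02, against -0.21 over all genes. Nanog gave 3.46 and -0.87 in knockout-labelled and 3.84 and 3.91 in wild-type-labelled motor neurons, against -0.42 and 1.46 in non-motor neurons, so its fractions overlapped (difference 2.06). Klf4 gave -1.97. Pou5f1, the Oct4 gene, did not pass the filter. Between the labels Sox2 rose by 2.17 and Sall4 fell by 2.03, each 1 of the 9, and the other Sall4 probe gave 0.24. Over all genes, 15.0% were called higher and 6.57% lower. The call of Sox2 was lost without either knockout-labelled replicate, and that of Sall4 without knockout-labelled or wild-type-labelled replicate 2.

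**Figure D4:**
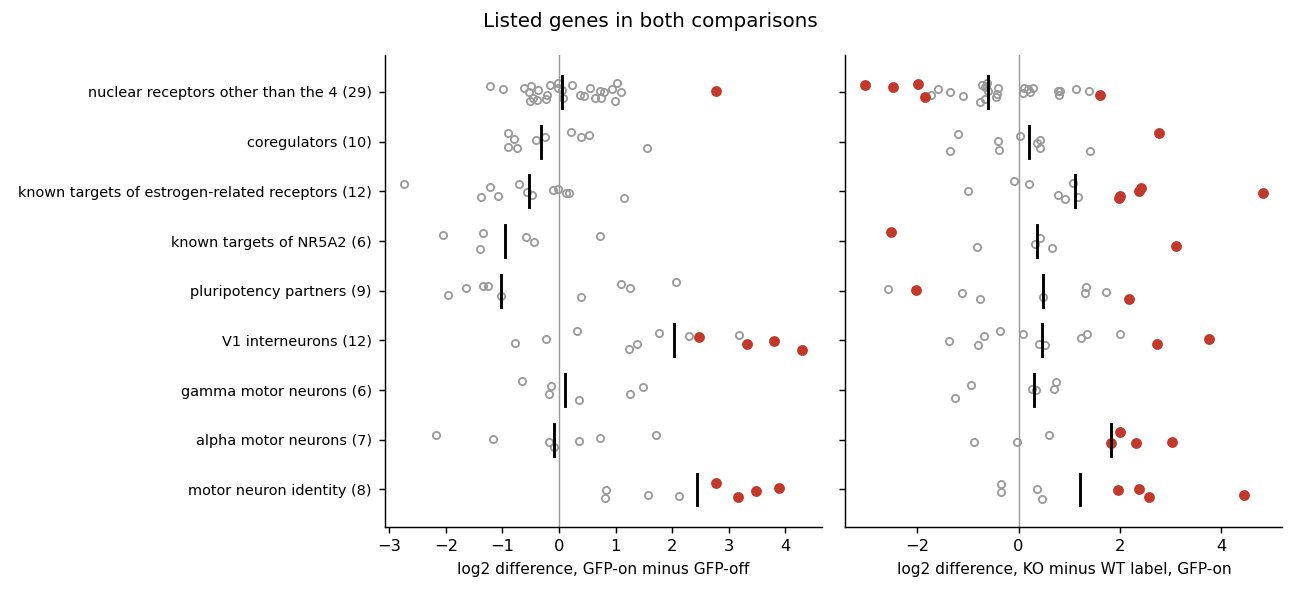
Log2 differences of the genes of 9 lists that passed the filter (number in brackets) between GFP-on and GFP-off cells (left, 4 arrays against 2) and between knockout-labelled and wild-type-labelled GFP-on cells (right, 2 against 2). Filled points passed the test (adjusted p under 0.05), open points did not, black bars are medians, and vertical scatter has no meaning. In the left panel, filled points are found for the other nuclear receptors (1), the V1 interneuron list (4) and the motor neuron identity list (4). The other interneuron, progenitor, red blood cell, microglia and neural crest lists are not plotted.

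Markers were set beside the receptors to check the sorted fractions. Of 9 motor neuron identity genes, 8 had a matched probe, and 4 passed as higher in motor neurons, against 0.791% over all genes. These 4 were Lhx4 (3.88), the acetylcholine vesicle transporter gene Slc18a3 (3.48), Chat (3.17), which makes acetylcholine, and Lhx3 (2.78). Mnx1 itself had no matched probe. Summed over the 8 genes on the linear scale, the level was 33.5 and 39.9 times the 75th percentile in knockout-labelled motor neurons. It was 12.0 and 8.14 in wild-type-labelled ones, and 5.19 and 3.42 in non-motor neurons. The sum does not stand for every gene. Prph, also on the list, gave 3.97 and 4.04 in knockout-labelled and 0.11 and -0.99 in wild-type-labelled motor neurons. Lhx4, Slc18a3, Chat and Lhx3 differed by -0.35, 0.47, -0.34 and 0.37 between the labels, and none of these was called. Isl1, a LIM homeodomain gene of motor neurons, gave 0.05 and 0.12 in wild-type-labelled motor neurons, close to the 0.09 of wild-type-labelled non-motor neurons, and 2.46 and 2.86 under the knockout label. The difference of Isl1 between the labels was 2.57 ± 0.51 (SE), and its call was lost without knockout-labelled replicate 2. The estimate lies above the upper limit of the 95% interval of every receptor probe (0.38 to 1.71). Isl1 was not tested against any receptor, and that comparison leaves out its own error. Between the labels 4 of the 8 identity genes and 2 of 6 progenitor genes were called higher and none lower. Over all genes, 15.0% were called higher and 6.57% lower.

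As Esrrb and Esrrg are known from gamma motor neurons, markers of the motor neuron subtypes were read as well. Of 9 gamma motor neuron genes, 6 passed the filter and none was called in either comparison. Among all genes, 1.11% were called between the fractions and 21.6% between the labels. The median difference of the 6 gamma genes between the fractions was 0.11, against -0.21 over all genes. The largest were those of Plch1 (1.48), a phospholipase gene, and Gfra1 (1.26), a GDNF receptor gene. Htr1d, Htr1f and Gpr149 were not above background on any array. Of 7 alpha motor neuron genes, none was called between the fractions, against the same 1.11% over all genes. Rbfox3, the NeuN gene, which mature gamma motor neurons show at a low level, gave 3.63, 4.03, 3.32 and 3.16 in motor neurons and 1.71 and 1.93 in non-motor neurons, a difference of 1.72 that did not pass (limma, adjusted p = 0.105). Between the labels 4 of 7 alpha markers were called higher on the probe that stands for the gene, against 15.0% over all genes. All 4 were below background in the wild-type-labelled motor neurons. Sv2a, a synaptic vesicle protein gene, was at least 7.0-fold higher. Second probes went the other way for Chodl (-2.06, adjusted p = 0.0253, limma, called lower) and Vipr2 (-1.40, not called). Sv2b, Chodl and Vipr2 also changed sign with normexp background correction, under which none of the 7 was called.

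Other cell types that GFP-on cells might include moved with the receptors in part. V1 interneurons are inhibitory neurons of the ventral cord. Of 14 genes known from them, 12 passed the filter. Against 0.791% over all genes, 4 were called higher in GFP-on cells, among them Foxd3 (4.29), Onecut2 (3.81) and Bhlhe22 (2.48, adjusted p = 0.0495, limma). The summed level of the 12 was 22.1, 22.6, 22.6 and 22.1 on the motor neuron arrays and 4.30 and 3.94 on the non-motor-neuron arrays. The sum does not stand for every gene. Between the labels 2 of the 12 were called higher and 0 lower, against 15.0% and 6.57% over all genes. These were Lmo3 (at least 5.34-fold) and St18 (at least 3.82-fold), both below background in wild-type-labelled motor neurons. Another Foxp2 probe was called lower (-2.15). En1, which defines V1 neurons, lay between -4.57 and -3.87 on all arrays and was above background on 2, 1 of each fraction. Calb1 was above background on none. Foxd3 is also a neural crest gene and Onecut2 is also expressed by motor neurons.

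The neural crest and Schwann list had 2 of 5 members called higher in GFP-on cells, Foxd3 and Sox10 (3.93), which directs crest and glial fate. Its summed level was 52.0 and 24.6 under the knockout label and 27.8 and 24.9 under the wild-type label in GFP-on cells, and 2.78 and 3.30 in GFP-off cells. Of 12 other interneuron genes, Evx1 (3.84) and Pax8 (2.67) were called higher. Over all genes, 0.791% were called higher and 0.315% lower between the fractions. Red blood cell genes moved the opposite way, with 5 of 7 lower in GFP-on cells and summed levels of 41.3 to 232 against 664 and 598. The part of these cells in the receptor differences was not tested. All calls between the fractions, in these lists and over all probes, were lost when any one wild-type-labelled array, of either fraction, was left out. Without knockout-labelled motor neuron replicate 2, the V1 list had 6 members called.

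The genes whose pattern over the 6 arrays was most like each receptor were found by Pearson correlation among 14914 other genes, as a description. Each r rests on 6 arrays that share 1 step between the fractions, so high values are common: 260 genes exceeded 0.95 with Esrrb, 186 with Esrrg, 235 with Nr5a2 and 9 with Esrra. Esrrb was most like Onecut3 (r = 0.9996), a transcription factor gene of the Onecut family. Onecut3 gave -2.09, -1.77, -1.28 and -2.41 in motor neurons and was below background in both non-motor-neuron samples and in wild-type-labelled motor neuron replicate 2. It had its highest value on the same array as Esrrb, wild-type-labelled replicate 1, and its lowest motor neuron value on wild-type-labelled replicate 2, as Esrrb did. Next were Gprin1, a gene of neurite growth, Ccdc184 and the somatostatin gene Sst, which gave 3.84, 4.04, 4.03 and 3.71 in motor neurons and 1.69 and 1.92 in non-motor neurons.

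Esrrg was most like Elovl7, Foxd3 (r = 0.996), Slc43a2 and Fam163a. Foxd3 gave 2.62, 2.38, 2.05 and 2.13 in motor neurons against -2.03 and -1.97, and its difference of 4.29 was close to that of Esrrg. Nr5a2 was most like Onecut2 (r = 0.996), Ttll9, and the neuronal cytoskeleton genes Ina and Dpysl3. Onecut2 gave 2.80 and 2.67 in knockout-labelled and 3.48 and 3.60 in wild-type-labelled motor neurons, and so had its lower values under the knockout label, as Nr5a2 had. Foxd3, Onecut2 and Onecut3 were also the nearest by the root mean square difference between profiles. They were the only ones of the 4 nearest genes shared by both measures. For Onecut3 both measures include signals below background, which are no measured levels.

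Esrra was most like Ctla2a, Foxa1, Spint1 and Irx1 by correlation, and none of these was among its 4 nearest by root mean square difference. Its values lay between 2.39 and 2.71, so its correlations rest on small differences between arrays. Among the receptors, r was 0.970 for Esrrb with Esrrg, 0.961 for Esrrb with Nr5a2 and 0.974 for Esrrg with Nr5a2. Esrra gave -0.12, -0.31 and -0.34 with Esrrb, Esrrg and Nr5a2.

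**Figure D5:**
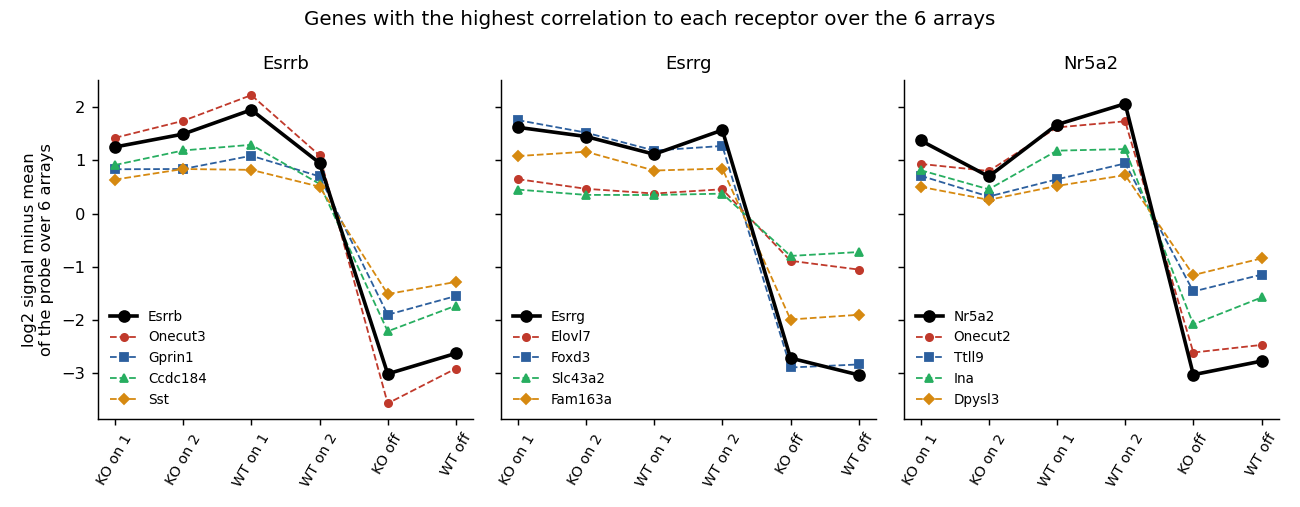
Log2 signal of Esrrb, Esrrg (probe A_55_P2006499) and Nr5a2 (black) on the 6 arrays, each minus its own mean, with the 4 genes of highest Pearson correlation (colours). KO and WT are the genotype labels, "on" and "off" the GFP-on and GFP-off cells, and numbers the replicates. Foxd3 and Onecut2 track the size of the step as well as its shape, while Elovl7 and Slc43a2 follow Esrrg with a smaller step. Onecut3 was below background on both GFP-off arrays and on WT on 2, so the size of its step was not measured.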

How the data were processed

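Spot intensity was read with Agilent Feature Extraction (version 10.5.1.1 per the file headers, 9.1 per the submitters' processing notes), and the processed intensity has its background subtracted. Scanner files as deposited also hold flags of other kinds for spots above background. The authors' value table, in log2, matches log2 of that intensity after subtraction of each array's 75th percentile for 100% of values (tolerance 0.01), with no centring of genes. The same scaling was used here, over probes counted once. Probes were named by RefSeq accession (assembly GRCm38.p6, whereas the headers name mm9), which gave 26300 of 55681 probes a gene. Probes well above background on at least 2 of 6 arrays were tested (33264). For lists, the probe with the highest mean stood for its gene (14918 genes).

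Differences were fitted with limma 3.58.1 in R 4.3.3 (Benjamini-Hochberg adjustment over all probes, threshold 0.05), with 4 group means for genotype and interaction, and additive terms for the fractions. Groups of 1 array were taken to vary like those of 2. No spot was saturated and all arrays lay on 1 slide. "At least" folds are group means against the lowest signal that passed as well above background. The limma fits for the genotype labels and for the fractions were tested on simulated data with known changes. The interaction and the other steps were not. The number of arrays limits the precision.

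The receptors, gene lists and alternatives were chosen with earlier results of these data known. Named genes are all receptors, the 4 most changed called genes of each list (otherwise the 2 most changed), and the 4 most correlated genes of each receptor. Some genes that this rule covers are not reported here. Other genes were named outside that rule, after their values were seen. They are Nr5a1, Esr1, Esr2, Acadm, Cpt1b, Nr1d2, Ncoa3, Mfn2, Pou5f1, En1, Foxp2, Calb1 and genes below background. Normexp background correction used the median spot signal and an offset of 50.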

Additional observations from a re-analysis of the deposited data

How the results depend on the processing

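The difference of Esrrb, Esrrg and Nr5a2 between the fractions stayed between 2.77 (Nr5a2, normexp) and 4.64 in all alternatives, and that of Esrra between -0.50 and 0.03. No receptor probe was called between the labels under any alternative (adjusted p from 0.153 to 0.982), nor in the interaction.

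Small genotype differences changed sign. For Esrra the difference was -0.15 with quantile normalization, -0.10 with array brightness as a covariate and -0.024 in an additive model, and with arrays left out in turn it ran from -0.11 to 0.20. For Esrrb it was 0.25 with normexp and 0.56 with array medians, and from -0.58 to 0.42 with arrays left out. Esrrg probe A_55_P2006499 gave -0.044 with quantile normalization, and from -0.034 to 0.42 with arrays left out. In the interaction, Esrrb gave -0.093 and Esrrg probe A_65_P19089 -0.15 with quantile normalization, and Esrrg probe A_55_P2006499 gave 0.46 with normexp and 0.25 with array medians. The interaction ran from -0.19 to 0.80 (Esrrb) and from -0.35 to 0.10 (Esrrg probe A_55_P2006499) with arrays left out. With normexp, Sv2b (-0.16), Chodl (-0.25) and Vipr2 (-0.24) reversed between the labels, and Abcg5 (0.17) and Mrc1 (0.045) between the fractions.

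Of 8257 probes called between the labels, the count was 1332 with normexp, 1970 with quantile normalization, 0 with no filter on dim probes (11502 at an unadjusted p under 0.05), 3434 with 1 probe per gene, 1637 with the brightness covariate, 0 in an additive model (11192 at an unadjusted p under 0.05), and 2106 to 11994 with arrays left out (lowest without knockout-labelled replicate 2; 3244 without wild-type-labelled replicate 2). Of 5 other nuclear receptors called, 1 remained in number with normexp, 0 with quantile normalization, no filter, the covariate or the additive model, and 0 to 7 with arrays left out. Between the fractions, 284 probes became 75 with normexp, 527 with array medians, 0 with quantile normalization (5624 at an unadjusted p under 0.05), 0 with no filter (17366), 836 with probes above background on all 6 arrays, and 935 with 4 group means. Within labels it was 0 for knockout (2513 at an unadjusted p under 0.05) and 849 for wild type, and 0 to 1802 with arrays left out. The 1 other receptor called became 0 with normexp, quantile normalization, no filter and within either label, and 0 to 1 with arrays left out. The interaction called 1 probe with normexp, 130 with array medians, 1 among probes above background on all 6 arrays, 27 with the covariate, and 0 to 76 with arrays left out. The cause of these shifts was not tested.

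In motor neurons, the difference between replicates 1 and 2 correlated with r = -0.096 between the labels. This cannot show whether replicate numbers pair the samples, as the knockout-labelled replicates differed in brightness (75th percentile 59.9 and 505.8). Within each label, GFP-on replicate 1 and the GFP-off array carry the same tag in their descriptions, whose meaning is not stated. The main fit of the fractions took these arrays as independent, and a pairing by that tag was not tested. With replicate number as a block (the replicate block), 9204 probes were called between the labels and 1051 between the fractions, and no receptor was called (adjusted p from 0.397 for Nr5a2 to 0.973). For 69 other named results, 752 of 1077 alternatives kept the call, 304 lost it, 16 gained one and 5 reversed. With 1 probe per gene, Esrrg probe A_65_P19089 has no value. With 2 arrays a group, the 95% interval of every tested receptor probe includes both 0 and a 2-fold change in at least 1 direction. The 1-array non-motor-neuron groups have no replicate check.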
